A study of Mus musculus with 6 samples.

Results

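Interferon regulatory factors (IRFs) and signal transducers and activators of transcription (STATs) are the transcription factors through which cells switch on interferon genes and answer interferons and related cytokines. The 9 genes described here, Irf1, Irf2, Irf3, Irf5, Irf7, Irf8, Irf9, Stat2 and Stat3, were picked by symbol from a table of 54532 mouse genes. All 9 were found once, and all 9 passed the filter on low values (an FPKM that averages 0.1 or more over all libraries, met by 20952 genes). FPKM is a level per length of gene and per depth of library.

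RNA-seq of hippocampal tissue was compared between 3 WT mice and 3 TG mice. TG mice are knock-in animals in which the G82R and L85P changes were placed in exon 3 of Slc1a2, the gene of the astrocyte glutamate transporter GLT-1, by CRISPR/Cas9 in C57BL/6N eggs, and WT mice are their littermates without the changes. The change is in the germ line and so in all cells, and neither group was treated. The zygosity of the sequenced TG animals and the age of the animals are not given in the sources used here. The study's mice were of both sexes, and the sex is not given per library. Ddx3y, on the Y chromosome, had an FPKM of 11.1 to 12.2 in WT and 10.6 to 12.3 in TG libraries. Xist, which is made in female cells, had at most 6 reads in a library, so all libraries read as male. Each library is taken as 1 mouse as labelled. The purpose of the comparison was to look for processes that differ in the hippocampus of animals with these variants, which are linked to epilepsy in people.

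Sensors of foreign nucleic acid act through IRF3 and IRF7 to induce type I interferon genes. Secreted interferon then signals through its receptor to a complex of STAT proteins with IRF9, called ISGF3, which switches on antiviral genes, Irf7 among them. In the brain, microglia express several of these factors, IRF8 is needed for microglial identity, and STAT3 drives the response of astrocytes to cytokines of the gp130 family.

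A pair of DNA motifs is tied to these factors. IRFs and ISGF3 read the interferon-stimulated response element, whose core was searched as GAAANNGAAA on either strand, and STAT dimers read the gamma-activated site, searched as TTCNNNGAA, which reads the same on both strands. RefSeq promoter windows of 300 bases on GRCm38.p6, from 250 bases before to 50 bases after a start site, were found for all 9 genes (12 windows). The response element core was present in 1 window each of 2 genes, Irf2 and Stat2, and in 3.44% of all 32851 windows. The gamma-activated site was present in 1 window each of 3 genes, Irf1, Irf2 and Irf8, and in 8.298% of all windows. These shares count windows, not genes. The 5 other genes, Irf3, Irf5, Irf7, Irf9 and Stat3, had neither run of letters in these windows, and nothing about binding follows from that. The stretches with matches are shown with 30 bases on each side where the window allows, with the matched letters in capitals, together with the stretch before the annotated start of Irf7, which is shown because Irf7 was the gene with the largest difference between the groups.
Irf1 (chr11:53769894-53769962, plus strand): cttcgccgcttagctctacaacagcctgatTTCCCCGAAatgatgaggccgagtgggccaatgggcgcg
Irf2 (chr8:46739495-46739559, plus strand): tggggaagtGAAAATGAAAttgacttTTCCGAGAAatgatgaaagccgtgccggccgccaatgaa
Irf8 (chr8:120736157-120736243, plus strand): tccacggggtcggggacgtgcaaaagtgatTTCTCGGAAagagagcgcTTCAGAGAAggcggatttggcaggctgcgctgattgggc
Stat2 (chr10:128270248-128270315, plus strand): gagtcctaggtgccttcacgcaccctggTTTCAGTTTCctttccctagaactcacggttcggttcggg
Irf7 (chr7:141266482-141266674, minus strand): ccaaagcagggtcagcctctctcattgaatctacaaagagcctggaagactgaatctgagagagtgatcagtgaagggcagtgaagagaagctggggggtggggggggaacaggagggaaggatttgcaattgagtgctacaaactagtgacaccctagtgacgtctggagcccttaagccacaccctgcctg
The match in Irf1 began 90 bases before the RefSeq start site and that in Stat2 222 bases before it. In Irf2 the response element core began 241 bases and the gamma-activated site 224 bases before the start, and the pair in Irf8 began 171 and 153 bases before it. These matches describe the letters of the windows only.

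The libraries held between 16081281 and 18751057 reads on genes, and a gene of 1 kb with 3 reads had an FPKM of 0.160 to 0.190. The summed level of 14 hippocampal neuron markers lay between 1185 and 1252 FPKM in WT and between 1173 and 1296 in TG libraries. Neuronal RNA was thus present in each. The most abundant marker, Camk2a, had 449 to 559 FPKM in WT and 519 to 608 in TG libraries. Slc1a2 itself had an FPKM from 177 to 202 in WT and from 207 to 222 in TG libraries. TG1 and TG2 stood apart from the other libraries in genes of the choroid plexus, which makes the cerebrospinal fluid. The sum of 21 markers was 1359 and 4245 FPKM there, against 86.8 to 115 in WT libraries and 95.3 in TG3. In bulk tissue, more cells of a type and more RNA per cell cannot be told apart, which holds for all values given here.

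At an unadjusted p under 0.05, 1 of the 9 genes was higher in TG mice and none was lower, where 5.91% of all tested genes had such a p, 3.13% on the higher and 2.78% on the lower side. That gene was Irf7. None of the 9 had an adjusted p under 0.05 in limma with Benjamini-Hochberg adjustment over all tested genes, and none did in limma-voom on recovered reads, where 1 had an unadjusted p under 0.05. Over all tested genes, 2 genes (0.00955%) passed at an adjusted p. The values of all 3 TG libraries lay above those of all 3 WT libraries for 2 of the 9 genes, Irf7 and Stat2. Over all genes, 6.35% were apart in that direction and 12.1% in either direction. With TG1 left out the groups were apart for 4 of the 9, beside 21% of all genes in either direction. That count was the highest with any library left out, and the share over all genes was not computed for the other libraries. All 9 log2 fold changes were above 0, beside 49.6% of all genes, and their median was 0.19, against -0.0020 for all tested genes. The 9 genes are not independent of each other, since they share libraries and several share cell types.

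**Figure D1:**
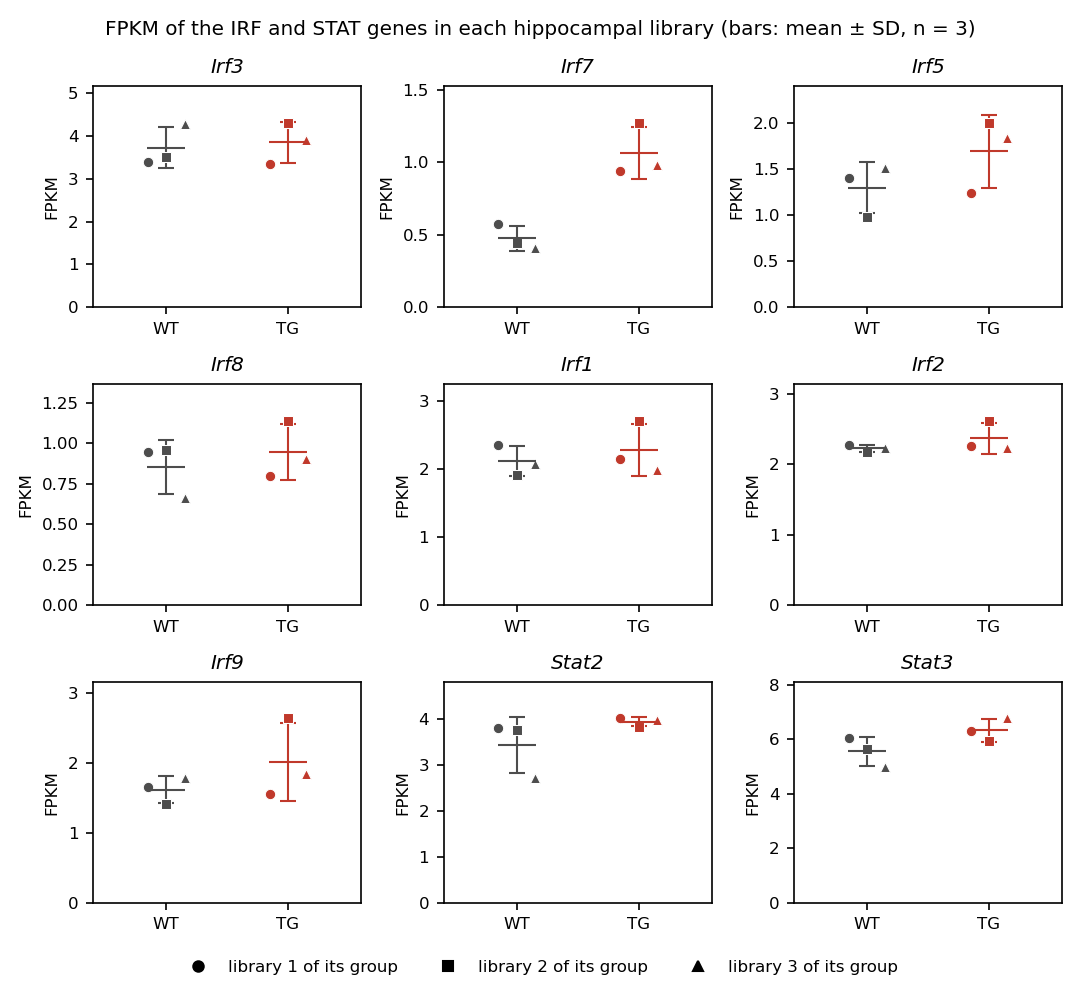
FPKM of each gene (vertical axes from 0, a scale for each gene) in the 3 WT (grey) and 3 TG (red) libraries, with the mean and SD of each group (n = 3) and a symbol for the number of the library. For Irf7, the WT libraries lie between 0.410 and 0.573 and the TG libraries between 0.937 and 1.27, while TG2 (square) is the highest point of all 7 IRF genes and Stat2 is apart only by a narrow margin.

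IRF3 and IRF7 are the pair that carries signals from nucleic acid sensors to the interferon genes. IRF3 is made all the time and waits in the cytoplasm, whereas IRF7 is scarce in most cells until interferon induces it. Irf7 (ENSMUSG00000025498, chromosome 7 from 141262706 to 141266481 in GRCm38, minus strand) had an FPKM of 0.573, 0.443 and 0.410 in WT1 to WT3, against 0.937, 1.27 and 0.982 in TG1 to TG3. Every TG library was above every WT library, and the lowest TG library held 56 reads of the gene against at most 40 in WT libraries. The log2 fold change was 1.02 (standard error 0.215, 95% interval 0.51 to 1.52), or 2.02-fold on the scale of log2(FPKM + 0.1), and the ratio of the mean FPKM was 2.24. The unadjusted p was 0.00193 in limma, and the Benjamini-Hochberg adjusted p over all genes was 0.786. The study itself displayed Irf7 among genes it selected from these same libraries, so its presence here is not independent of that choice.

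Irf3 (ENSMUSG00000003184, chromosome 7 from 44997648 to 45002848, plus strand) had an FPKM of 3.39, 3.51 and 4.28 in WT1 to WT3, against 3.34, 4.31 and 3.91 in TG1 to TG3. The groups covered nearly the same range, with TG1 the lowest library and TG2 the highest. The difference was 0.047 on the log2 scale (standard error 0.136, 95% interval -0.27 to 0.37), and it was -0.016 without WT1 and -0.036 without TG2, so no direction held. Within a library, the level of Irf7 was 0.169, 0.126 and 0.0958 times that of Irf3 in WT1 to WT3, against 0.280, 0.295 and 0.251 times in TG1 to TG3. These ratios did not overlap between the groups. Their difference was 1.12 on the log2 scale, with a two-sided exact permutation p of 0.1, the smallest that 3 libraries against 3 allow, and 0.5 after Benjamini-Hochberg adjustment over the 5 ratios computed here, which were chosen with the values known.

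STAT2 and IRF9 are the parts of ISGF3 that set it apart from the factors used by interferon gamma, with IRF9 as the subunit that reads the DNA. Stat2 (ENSMUSG00000040033, chromosome 10 from 128270559 to 128292849, plus strand) had an FPKM of 3.82, 3.77 and 2.73 in WT1 to WT3, against 4.02, 3.83 and 3.99 in TG1 to TG3. The groups did not overlap, but TG2 exceeded WT1 by less than the spread of the TG libraries, and WT3 alone was low. On the log2 scale the difference was 0.21 (standard error 0.142), with an unadjusted p of 0.182 in limma. It was 0.056 without WT3, so most of it rested on that library.

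Irf9 (ENSMUSG00000002325, chromosome 14 from 55603571 to 55610030, plus strand) had an FPKM of 1.65, 1.41 and 1.79 in WT1 to WT3, against 1.55, 2.63 and 1.84 in TG1 to TG3. TG2 was far above the other libraries, and TG1 lay inside the WT range. Its log2 fold change was 0.27 (standard error 0.206, unadjusted p = 0.231 in limma) and became 0.066 without TG2. The ratio of Irf9 to Stat2 within a library was 0.432, 0.375 and 0.654 in WT1 to WT3, against 0.385, 0.687 and 0.461 in TG1 to TG3, and the groups overlapped (exact permutation p = 0.7).

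IRF1 and IRF2 bind the same sites, IRF1 as an activator that interferon gamma induces and IRF2 mostly as its stable antagonist. Irf1 (ENSMUSG00000018899, chromosome 11 from 53770014 to 53778374, plus strand) had an FPKM of 2.35, 1.92 and 2.07 in WT1 to WT3, against 2.15, 2.71 and 1.98 in TG1 to TG3. Only TG2 was above the WT range. A log2 fold change of 0.096 (standard error 0.153, 95% interval -0.26 to 0.46) turned to -0.030 without TG2.

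Irf2 (ENSMUSG00000031627, chromosome 8 from 46739732 to 46847458, plus strand) was the steadiest of the genes over the WT libraries, with an FPKM of 2.27, 2.18 and 2.22 there and of 2.26, 2.62 and 2.22 in TG1 to TG3. Again TG2 alone left the WT range. Its log2 fold change was 0.081 (standard error 0.114, 95% interval -0.19 to 0.35) and became 0.01 without TG2. The ratio of Irf1 to Irf2 lay between 0.88 and 1.03 in WT and between 0.889 and 1.03 in TG libraries, with overlapping groups (exact permutation p = 0.8).

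IRF5 and IRF8 act mainly in myeloid cells, IRF5 in the output of inflammatory cytokines and IRF8 in the identity of macrophages and microglia. Irf5 (ENSMUSG00000029771, chromosome 6 from 29526625 to 29541871, plus strand) had an FPKM of 1.40, 0.980 and 1.51 in WT1 to WT3, against 1.24, 2.00 and 1.83 in TG1 to TG3. TG2 and TG3 were above all WT libraries and TG1 was not. Its log2 fold change was 0.35 (standard error 0.232, 95% interval -0.19 to 0.90, unadjusted p = 0.169 in limma), the second largest of the 9. It was 0.18 without WT2, 0.23 without TG2 and 0.55 without TG1.

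Irf8 (ENSMUSG00000041515, chromosome 8 from 120736358 to 120756694, plus strand) had an FPKM of 0.943, 0.957 and 0.659 in WT1 to WT3, against 0.797, 1.14 and 0.903 in TG1 to TG3. The groups overlapped, with WT3 lowest and TG2 highest. A difference of 0.14 on the log2 scale (standard error 0.218, 95% interval -0.37 to 0.65) became -0.018 without WT3. The ratio of Irf5 to Irf8 was 1.48, 1.02 and 2.29 in WT1 to WT3, against 1.56, 1.75 and 2.03 in TG1 to TG3 (exact permutation p = 0.6), so the TG ratios lay inside the WT range.

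STAT3 answers interleukin 6, leukaemia inhibitory factor and leptin and is the factor best known in reactive astrocytes. Stat3 (ENSMUSG00000004040, chromosome 11 from 100885098 to 100939540, minus strand) had an FPKM of 6.05, 5.63 and 4.98 in WT1 to WT3, against 6.29, 5.93 and 6.77 in TG1 to TG3. The groups overlapped, since TG2 lay below WT1, and TG2 was here the lowest of the TG libraries. The difference on the log2 scale was 0.19 (standard error 0.101, 95% interval -0.049 to 0.42), with an unadjusted p of 0.104 in limma and a Benjamini-Hochberg adjusted p of 0.789. It was 0.11 without WT3. The ratio of Stat2 to Stat3 was between 0.548 and 0.669 in WT and between 0.59 and 0.647 in TG libraries (exact permutation p = 0.8), and the TG ratios lay inside the WT range.

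**Figure D2:**
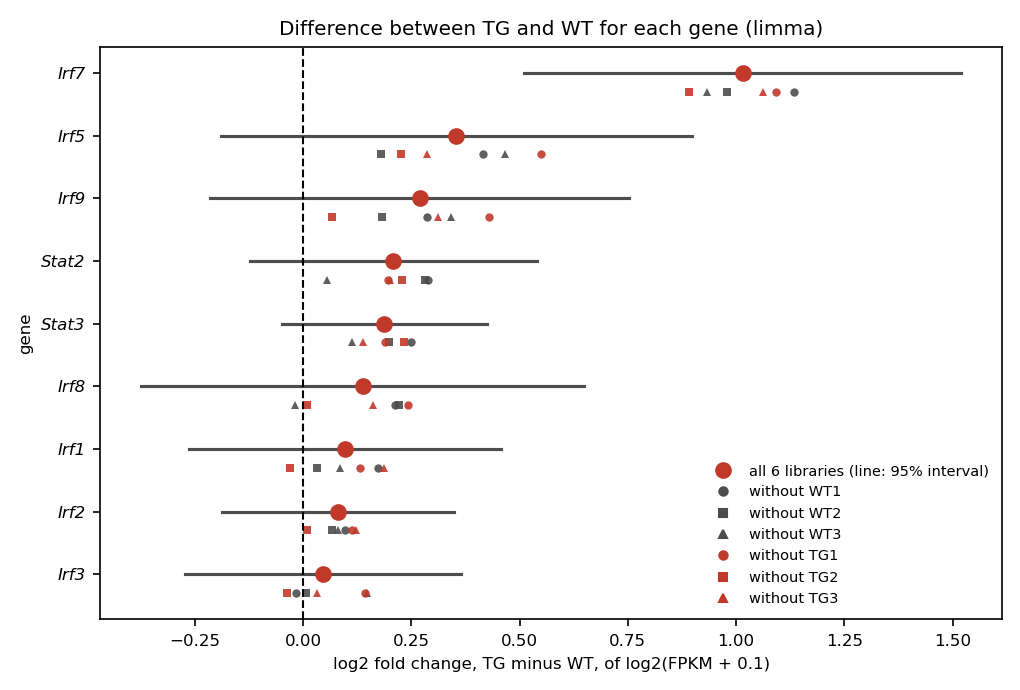
Log2 fold change of each gene between TG and WT, on the scale of log2(FPKM + 0.1), with all 6 libraries (red circle, line for the 95% interval of limma) and with each library left out (small symbols). The interval of Irf7 runs from 0.51 to 1.52 and those of the other 8 genes include 0, and Irf1, Irf3 and Irf8 cross 0 when 1 library is left out.

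On the FPKM scale, which is per length, the order of the mean levels in WT mice was Stat3 (5.55 ± 0.536, SD, n = 3), Irf3 (3.73 ± 0.484), Stat2 (3.44 ± 0.614), Irf2 (2.23 ± 0.049), Irf1 (2.11 ± 0.222), Irf9 (1.62 ± 0.188), Irf5 (1.29 ± 0.278), Irf8 (0.853 ± 0.168) and Irf7 (0.475 ± 0.0861). The ranges of neighbours overlapped between Irf3 and Stat2, between Irf2 and Irf1 and between Irf9 and Irf5. Irf7 was lowest in WT mice, below every value of Irf8. In TG mice Stat3 was again apart at the top with 6.33 ± 0.421 and Irf2 was below Irf3, but from Irf2 down to Irf8 each neighbour overlapped with the next. Irf7 had a mean of 1.06 ± 0.181 in TG mice and overlapped with Irf8 at 0.946 ± 0.175 and with Irf5 at 1.69 ± 0.398.

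These levels depend on the length used. The deposited lengths equalled the union of all annotated exons (GENCODE M21) for all 9 genes, and for Irf2 this was 7396 bases where the longest protein-coding transcript has 2497. With the latter length, Irf2 was second in WT mice at a level of 6.59, Irf8 moved above Irf5, and Irf7 was lowest in both groups, where by FPKM it was lowest in WT and above Irf8 in TG mice. The length is the same in all libraries and leaves the comparison of WT with TG as it is. Exons overlapped with those of a gene on the opposite strand for 411 bases in Irf5 (Tnpo3, 14.1% of the Irf5 exon length), and for 45 to 135 bases in Irf1, Irf3, Irf7 and Stat3, while Irf9 shares 123 bases with Rnf31 on its own strand. Whether the counting used strand is not given in the sources used here, so reads in those stretches could come from either gene of the pair.

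TG2 held the highest value of all 7 IRF genes, where 15.7% of all tested genes were highest in TG2. TG2 was also the library with the most choroid plexus RNA. Marker sums of some immune cell types differed between the TG libraries too, in orders of their own. The sum of 18 microglia markers was 301, 277 and 319 FPKM in WT1 to WT3, against 252, 370 and 347 in TG1 to TG3, so TG2 and TG3 were above the WT range and TG1 was below it. In that list 2 of 18 were higher at an unadjusted p under 0.05 in limma (Csf1r and Trem2), beside 3.13% of all genes. Of the 18 log2 fold changes, 11 were above 0, and their median was 0.07. The 11 T and NK cell markers, 6 of them above the filter, summed to 1.84, 1.23 and 1.90 in WT1 to WT3. The sums were 1.39, 5.03 and 2.87 in TG1 to TG3. The 6 B and plasma cell markers, 4 of them above the filter, summed to 6.97, 7.33 and 6.33 in WT1 to WT3. The sums were 5.74, 31.9 and 76.7 in TG1 to TG3, mostly Ighm. The defining T cell marker Cd3e was below the filter, and no marker of any list was at 0 in all libraries.

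The sums of the other myeloid lists overlapped between the groups. Border macrophage markers summed to between 2.90 and 4.49 FPKM in WT libraries and to 4.71, 4.21 and 4.85 in TG1 to TG3, so TG1 and TG3 were above the WT range, and markers of monocytes, neutrophils and dendritic cells to between 15.0 and 30.3 in WT and between 12.1 and 27.6 in TG libraries, with none of either list at an unadjusted p under 0.05. Of the 21 choroid plexus markers, 10 were on the higher side with an unadjusted p under 0.05, with most of their RNA in TG1 and TG2. With the choroid plexus score of each library as a covariate, the log2 fold changes of Irf1, Irf2 and Irf8 were below 0. They were -0.12 (standard error 0.186), -0.027 (0.160) and -0.0090 (0.306), each smaller in size than its standard error. The log2 fold change of Irf9 was 0.068 (0.275) and that of Irf7 was 0.85 (0.299, unadjusted p = 0.0273 in limma). The choroid plexus sum was above the WT range only in TG1 and TG2, so the score and the group are partly confounded. Over all tested genes, the count on the higher side at an unadjusted p under 0.05 fell from 656 to 339 with the covariate. No covariate was fitted for the other cell types. The part of these cell types in the values of the IRF and STAT genes, Irf7 among them, was not tested.

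In TG3, where the choroid plexus sum of 95.3 lay within the WT range, Irf7 was at 0.982, above all WT libraries. In TG1, where the sums of microglia, T and NK cell and B cell markers were not above the WT range and that of border macrophage markers was, Irf7 was at 0.937, also above all WT libraries. Each of these values is of 1 library, and the part of these cell types in the Irf7 difference was not tested. With TG3 alone set against WT, an alternative chosen after seeing the data in which the lone library is assumed to vary like the WT libraries, the log2 fold change of Irf7 was 0.92 (unadjusted p = 0.0409 and Benjamini-Hochberg adjusted p = 0.976 in limma, with adjusted p-values of 0.52 to 0.997 over all alternatives).

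**Figure D3:**
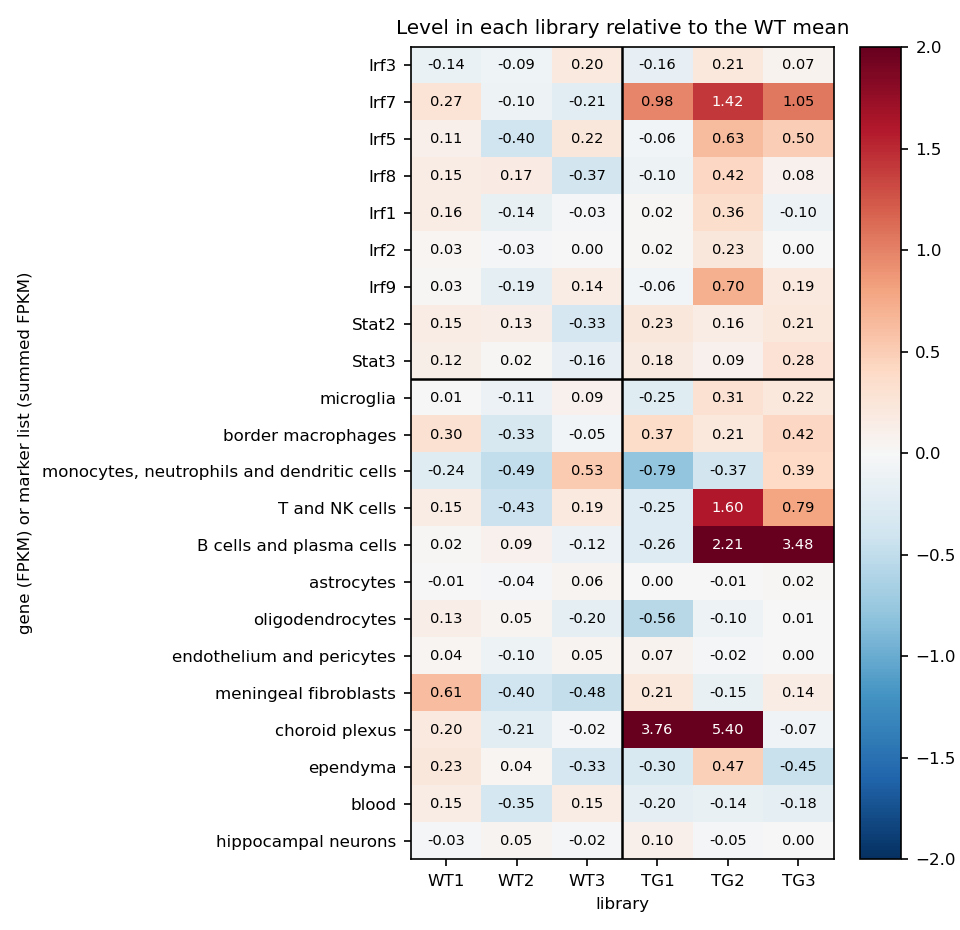
Log2 of the level in each library over the WT mean (columns: libraries, numbers and colours: log2 ratio, colour ending at ±2). The top rows hold the FPKM of the 9 genes and the bottom rows the summed FPKM of the cell type marker lists. Irf7 is at 0.98, 1.42 and 1.05 in TG1 to TG3, while the choroid plexus markers are at 3.76 and 5.40 in TG1 and TG2 and at -0.07 in TG3, and the B and plasma cell markers at 2.21 and 3.48 in TG2 and TG3 and at -0.26 in TG1.

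Of the ligands that start these pathways, almost no reads were found. Of 11 interferon genes, 9, Ifnb1 and 4 Ifna genes among them, had 0 reads in all 6 libraries. Ifng had 1 read, in TG2, and Ifnz 2 reads, in WT3. A count of 0 allows up to 3 reads, or an FPKM of 0.160 to 0.190 for a gene of 1 kb, so low levels of interferon RNA were not detectable at this depth, and none of these genes was tested.

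The interferon receptors and the kinases bound to them were measured for 8 of 9 genes, and none passed at an unadjusted p under 0.05 in either direction. Their median log2 fold change was -0.01, and the sign of this median was not stable when libraries were left out. Jak1, the kinase shared by all interferon receptors and the most abundant of these genes, had an FPKM of 28.7, 29.2 and 28.7 in WT1 to WT3, against 30.4, 25.9 and 27.1 in TG1 to TG3. Ifnar2, a chain of the type I interferon receptor and the gene of the list with the smallest p, had 3.92, 3.55 and 3.77 in WT1 to WT3, against 3.63, 5.13 and 4.76 in TG1 to TG3 (unadjusted p = 0.119 in limma). The gene under the filter was Ifnlr1, which the study displayed, with at most 17 reads in a library.

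Sensors and kinases that act on IRF3 and IRF7 were tested for 19 of 20 genes, with Tlr8 under the filter. All 19 log2 fold changes were above 0, beside 49.6% of all genes, with a median of 0.25. Most other lists leaned to that side too, with 11 of 12 genes upstream of STAT3 and 11 of 12 partner factors above 0. So were 12 of 16 negative regulators, 23 of 26 IRF1 targets and 16 of 18 STAT3 targets, but only 4 of 8 receptors and their kinases. Among the 19, 1 gene was higher at an unadjusted p under 0.05. This was Ifih1, which encodes the RNA sensor MDA5, with an FPKM of 0.431, 0.440 and 0.353 in WT1 to WT3, against 0.758, 0.779 and 0.698 in TG1 to TG3, a log2 fold change of 0.74 with a standard error of 0.205. Its TG values were close together and all above WT. With the choroid plexus covariate and with TG3 alone against WT, no gene of the list was higher at an unadjusted p under 0.05. Traf3, an adaptor of the pathway and the most abundant gene of the list, had a log2 fold change of 0.16 and the groups overlapped.

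Of 17 cytokines and receptors upstream of STAT3, most of them of the gp130 family, 12 were tested, and 3 receptors were higher at an unadjusted p under 0.05, with none lower. Il6ra, the receptor of interleukin 6, had an FPKM of 1.27 ± 0.052 in WT and 1.68 ± 0.162 in TG mice (SD, n = 3 each). Il10ra, the receptor of interleukin 10, which signals through STAT3 without gp130, had 1.54 ± 0.111 and 2.28 ± 0.358. Lepr, the leptin receptor, which does not use gp130 either, had 0.376, 0.202 and 0.144 in WT1 to WT3, against 0.538, 1.16 and 0.448 in TG1 to TG3. The cytokines Il6, Cntf, Osm, Il10 and Lep were under the filter, with at most 7 reads in a library. The most abundant receptor, Cntfr, had 21.9 ± 1.38 FPKM in WT and 22.9 ± 1.76 in TG mice. With TG3 alone against WT, 1 of the 12 was higher at an unadjusted p under 0.05, with the choroid plexus covariate none was, and without TG2 1 was.

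Negative regulators were tested for all 16 genes, and 2 were higher at an unadjusted p under 0.05. Usp18, an interferon-induced brake on the type I receptor that also belongs to the ISGF3 targets, had an FPKM of 0.446, 0.333 and 0.268 in WT1 to WT3, against 0.476, 0.800 and 0.734 in TG1 to TG3. Pias3, an inhibitor of STAT3, had 6.43 ± 0.192 in WT and 7.26 ± 0.179 in TG mice (SD, n = 3 each), which is 0.17 apart on the log2 scale. The most abundant, Ptpn11, had 31.2 ± 2.56 and 33.1 ± 0.80. None of the 16 was higher at an unadjusted p under 0.05 with the replicate number as a block, with the choroid plexus covariate, with TG3 alone, without WT2 or without TG3.

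None of the 12 partner factors of IRFs and STATs had an unadjusted p under 0.05. Batf3, which acts together with IRF8 in dendritic cells and had the smallest p (0.0596 in limma), had an FPKM of 0.474, 0.271 and 0.401 in WT1 to WT3, against 0.514, 0.594 and 0.797 in TG1 to TG3 on 7 to 23 reads. Rela, a subunit of NF-κB and the most abundant, had 7.89 ± 0.90 in WT and 8.21 ± 0.165 in TG mice (SD, n = 3 each).

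Downstream, 31 of 34 ISGF3 targets were tested, and 10 of them (32.3%, beside 3.13% of all genes) were higher at an unadjusted p under 0.05, none was lower, and 29 of 31 log2 fold changes were above 0. The median log2 fold change was 0.49. In TG1, 13 of the 31 genes were above all WT libraries, and 23 were in each of TG2 and TG3, where 27.7%, 23.6% and 23.3% of all tested genes were so in TG1, TG2 and TG3. Rtp4, a chaperone of receptors induced by interferon and the gene with the smallest p, had an FPKM of 0.635, 0.581 and 0.702 in WT1 to WT3, against 0.890, 2.17 and 1.79 in TG1 to TG3, with a log2 fold change of 1.14 (SE 0.311). Ifit1, which binds foreign RNA, had 0.672, 0.443 and 0.764 in WT1 to WT3, against 0.952, 1.83 and 1.35 in TG1 to TG3. Bst2, which tethers virus to the cell surface, had 4.85 ± 0.81 in WT mice and 8.75, 24.6 and 8.03 in TG1 to TG3, where TG2 set the TG mean. The most abundant, Ifi27, had an unadjusted p of 0.0878 in limma. The count was 5 without WT2, 4 without WT3, 17 without TG1, 5 without TG2 and 6 without TG3. With TG3 alone against WT it was 8, and with the choroid plexus covariate it was 1.

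Targets of IRF1 and interferon gamma were tested for 26 of 28 genes, with Gbp6 and Cxcl9 under the filter. Of the 26, 14 (53.8%, beside 3.13% of all genes) were higher at an unadjusted p under 0.05, none was lower, and the median log2 fold change was 0.62. They included 4 guanylate-binding proteins (Gbp2, Gbp3, Gbp5 and Gbp9), 5 immunity-related GTPases (Igtp, Irgm1, Irgm2, Iigp1 and Tgtp1), and Nlrc5, Tap2, Tapbp, Psmb8 and Psmb9, which serve antigen presentation on MHC class I. Psmb8, a subunit of the immunoproteasome, had the smallest p of the list and an FPKM of 1.15, 0.950 and 0.996 in WT1 to WT3, against 1.59, 2.32 and 1.90 in TG1 to TG3, with a log2 fold change of 0.84 (SE 0.175, unadjusted p = 0.00179 in limma). Nlrc5, the transactivator of MHC class I genes, had 0.134, 0.117 and 0.063 in WT1 to WT3, against 0.417, 0.499 and 0.411 in TG1 to TG3, on 10 to 76 reads. B2m, the most abundant, lay inside the WT range in TG1 (67.9) and above it in TG2 (181) and TG3 (132). With the choroid plexus covariate the count was 5, where that over all tested genes on the higher side fell from 656 to 339. Irf1 itself, the factor of the list's name, had overlapping groups. The study displayed Nlrc5, Iigp1 and Cxcl9 among genes selected from these libraries. Guanylate-binding proteins and Tgtp1 have close copies in the genome whose reads the counting may have split. The annotated spans of Igtp and Irgm2 overlap on the same strand of chromosome 11, so their values may not be independent of each other.

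STAT3 targets and genes of reactive glia were tested for all 18 genes, and 1 was higher at an unadjusted p under 0.05, Timp1, with 0.384 ± 0.0940 FPKM in WT and 0.678 ± 0.156 in TG mice (SD, n = 3 each) on 5 to 12 reads. The most abundant, Gfap, the filament protein of astrocytes, had 91.1, 77.7 and 79.9 in WT1 to WT3, against 80.3, 97.4 and 97.1 in TG1 to TG3, with overlapping groups. The list had a median of 0.13 on the log2 scale. No gene of any of these lists had an adjusted p under 0.05 in limma with Benjamini-Hochberg adjustment over all genes, and a difference between the lists was not tested.

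**Figure D4:**
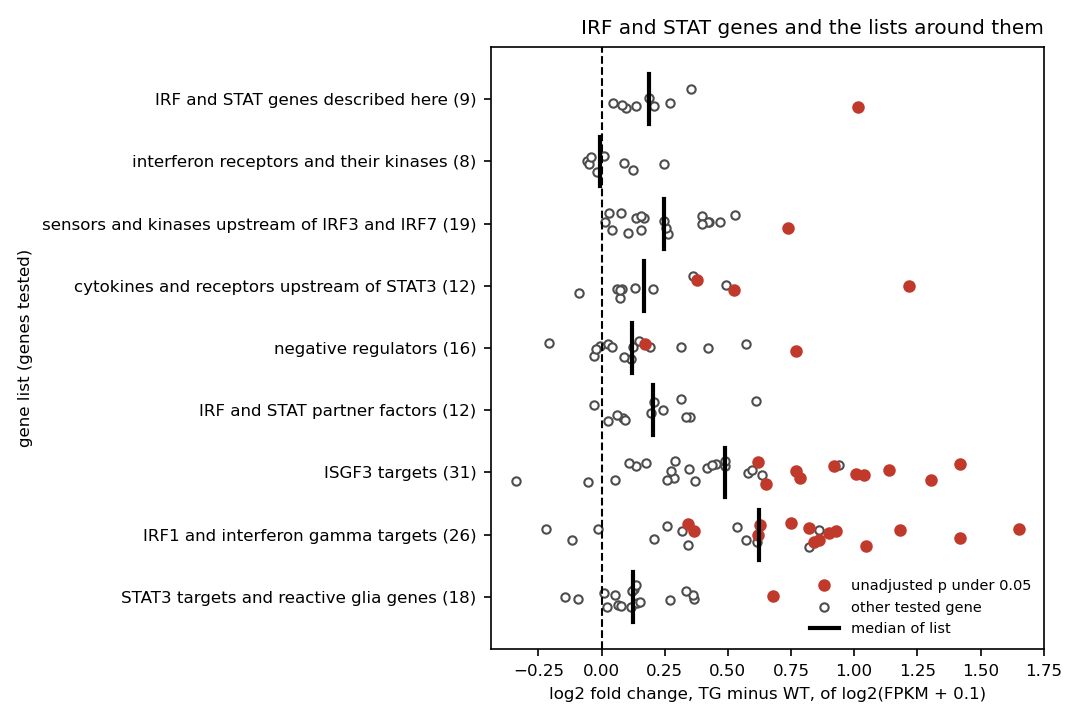
Log2 fold change between TG and WT of every tested gene (1 circle each, red for an unadjusted p under 0.05, black bar for the median), for the 9 IRF and STAT genes and for the lists upstream and downstream of them, with the number of genes tested in brackets. The medians are -0.01 for receptors, 0.19 for the IRF and STAT genes, 0.49 for ISGF3 targets and 0.62 for IRF1 and interferon gamma targets.

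The genes with a pattern most like that of Irf7 were sought among the 13325 genes averaging an FPKM of 1 or more, by the mean absolute difference over the 6 libraries of log2(FPKM + 0.1) centred on the mean of each gene. The nearest was Psmb8 (0.0893), followed by Gbp3 (0.101), H2-Q6 (0.142), Igtp (0.147) and Vcam1 (0.162). Gbp3 had an FPKM of 1.28, 1.14 and 0.867 in WT1 to WT3, against 1.95, 2.597 and 1.68 in TG1 to TG3. Vcam1, an adhesion molecule of activated endothelium, had 3.21, 2.33 and 2.56 in WT1 to WT3, against 4.03, 5.13 and 4.06 in TG1 to TG3. All 5 had TG values above all WT values, which the search for a likeness with Irf7 favours, and no test was made. H2-Q6 belongs to the MHC class I genes, which have close copies.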

How the data were processed

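Hippocampal RNA of 3 WT and 3 TG mice was analysed, grouped by the labels. The authors counted reads per gene with HTSeq v0.6.0 and deposited FPKM computed from the read count and the gene length, as 1 column per library, unpooled. The submitters' processing notes name GRCm38 and mm10, whereas the aligner and the strand setting are not given in the sources used here. RNA extraction and library kits differ between the labels (RNeasy, SMARTER) and the methods (Trizol, NEBNext). FPKM times length gave whole reads for 100% of values (tolerance 0.05 reads), hence the reads on genes of 16081281 to 18751057 per library. Counting limits cover counting error only.

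Groups were compared with limma 3.58.1 in R 4.3.3 (lmFit, eBayes with a trend on mean expression) on log2(FPKM + 0.1) over the 20952 genes whose FPKM averaged 0.1 or more, two-sided, adjusted after Benjamini-Hochberg and called under 0.05. This pseudocount understates fold changes of low genes. The fit was first tested on simulated data with known changes. The simulation gave all genes the same extra spread beyond counting error and the libraries no difference in cell make-up, so it does not cover such differences here. Ratios of members were compared with exact permutation tests. The alternatives were pseudocounts of 0.01 and 1, no filter or a minimum mean FPKM of 1, quantile normalization, no trend, protein-coding genes only, limma-voom on recovered reads, a replicate block, a choroid plexus score as covariate and each library left out. TG3 alone against WT and the transcript length behind the order of levels were added after seeing the data. Same-numbered libraries did not deviate together (correlation 0.00314 to 0.0434), and p-values measure only the spread between these libraries.

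The 9 genes, the gene lists and the ratios were chosen with earlier results of these data known. Named genes are all 9 members, the most abundant gene of each pathway list and that with its smallest p, those passing where they are 5 or fewer, and the 5 genes nearest to the member with the smallest p. Ifit1, Bst2, Nlrc5 and the other genes named among larger counts were chosen after their values were seen, as were the markers named in the text. Figures were drawn with matplotlib 3.10.9, with tables made in Python 3.11.15.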

Additional observations from a re-analysis of the deposited data

How the results depend on the processing

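The log2 fold change of Irf7 was above 0 under all 16 alternatives that gave a value, from 0.48 (pseudocount 1) to 1.15 (limma-voom on recovered reads), with unadjusted p-values of 0.000681 to 0.0409 and adjusted p-values of 0.52 to 0.997 in limma. With a mean FPKM of at least 1, Irf7 and Irf8 left the test, and 0 of the remaining genes had an unadjusted p under 0.05. Irf5, Irf9, Stat2 and Stat3 were above 0 under all 17 alternatives, with Irf9 at 0.068 with the choroid plexus covariate. Directions reversed for Irf1 (-0.12 with the choroid plexus covariate, -0.086 with TG3 alone, -0.030 to 0.19 with a library left out). They also reversed for Irf2 (-0.027 with the covariate, -0.00074 with TG3 alone) and Irf3 (-0.036 to 0.15 with a library left out). The same held for Irf8 (-0.0090 with the covariate, -0.018 to 0.24 with a library left out). Each value below 0 was smaller in size than its standard error, and the cause of the reversals was not tested. Over all genes, the count at an adjusted p under 0.05 was 0 with either other pseudocount, no filter, protein-coding genes, voom, the covariate or TG3 alone, 1 with the minimum mean of 1, 9 with no trend and 0 to 6 with a library left out, and with the covariate 339 genes were higher and 384 lower at an unadjusted p under 0.05.

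Depth limits the low genes most, since Irf7 rested on 27 to 86 and Irf5 on 46 to 104 reads per library. The same-numbered libraries share only a number. With the replicate number as a block, 0 genes had an adjusted p under 0.05, and 2 sensors, 0 negative regulators and 0 STAT3 targets were higher at an unadjusted p under 0.05. No other count of calls moved by over 1.5 times under the block.

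Counts of list genes higher at an unadjusted p under 0.05 moved as follows. The minimum mean of 1, by testing fewer genes, gave 1 negative regulator, 5 ISGF3 targets, 8 IRF1 targets and 0 STAT3 targets. Quantile normalization gave 1 negative regulator and 2 STAT3 targets, and left 1 member with groups apart. No trend gave 4 sensors, 1 negative regulator, 1 partner factor and 2 STAT3 targets. Protein-coding genes gave 3 sensors, 1 negative regulator and 1 partner factor, and voom gave 3 sensors and 1 negative regulator. The covariate gave 0 sensors, 0 genes upstream of STAT3, 0 negative regulators, 1 ISGF3 target and 5 IRF1 targets. TG3 alone gave 0 sensors, 1 gene upstream of STAT3, 0 negative regulators, 1 partner factor, 5 IRF1 targets and 0 STAT3 targets. Leaving out each library gave 0 to 1 receptors, 1 to 2 sensors, 1 to 4 genes upstream of STAT3, 0 to 3 negative regulators, 0 to 1 partner factors, 4 to 17 ISGF3 targets (fewest without WT3, most without TG1), 10 to 15 IRF1 targets, 0 to 1 STAT3 targets lower, 449 to 747 genes higher, 406 to 717 lower, 7 to 9 members above 0 and 2 to 4 members with groups apart.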

Other observations

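Markers of the remaining cell types were measured in the same libraries. The 12 astrocyte markers, the cells that hold most GLT-1, summed to between 791 and 847 FPKM in WT and between 811 and 827 in TG libraries, and none had an unadjusted p under 0.05 in limma. The 10 oligodendrocyte markers summed to 839, 795 and 670 in WT1 to WT3 and to 521, 718 and 772 in TG1 to TG3, and 1 of them, Opalin, was lower at an unadjusted p under 0.05. Of 12 endothelial and pericyte markers, 1 was higher (Flt1), and the sums overlapped (111 to 123 in WT and 117 to 124 in TG libraries). The 9 meningeal fibroblast markers summed to 31.1, 15.5 and 14.6 in WT1 to WT3 and to 23.5, 18.3 and 22.5 in TG1 to TG3. Of 7 tested ependymal markers, 3 were lower (Tmem212, Ccdc153 and Rarres2), and the sums overlapped (11.2 to 16.5 in WT and 10.3 to 19.5 in TG libraries). Blood markers summed to between 143 and 202 in WT and between 159 and 165 in TG libraries. Of the 14 hippocampal neuron markers, Grp was lower at an unadjusted p under 0.05, and no marker of any list had an adjusted p under 0.05 with Benjamini-Hochberg adjustment.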
